A study of Mus musculus with 11 samples.

Results

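Sugars, nucleosides, vitamins, fatty acids, choline and lactate are polar or charged and cross membranes through carriers of the solute carrier (SLC) superfamily. The secretory alveolar cell of the mammary gland takes up glucose from the blood, carries glucose and UDP-galactose into the Golgi, where lactose is made, and loads milk with vitamins, iodide, choline and nucleosides. The genes described here are the mouse genes of 13 SLC families that serve these substrates. A gene was taken when its symbol in the expression table was Slc, a family number out of 2, 5, 16, 19, 23, 27, 28, 29, 33, 35, 44, 46 or 52, the letter a and a member number. Of 14847 named genes, 58 met this rule, in 12 of the 13 families. No symbol of family 52, which carries riboflavin, was of this form, and genes of family 35 with other letters than a were not taken.

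The series followed the binding of the transcription factor STAT5A and the promoter mark H3K4me3 in mouse mammary tissue through pregnancy. Of its 11 samples, the 1 used here is RNA-seq of whole mammary gland at parturition (L1). It came from wild-type mice of the strain background 129SV::FVB/N::C57BL/6, with the lymph nodes removed before freezing, and the labels do not say how many animals supplied it. Poly(A) RNA was sequenced, and the deposited values are FPKM (fragments divided by transcript length and by the total of mapped fragments), which allow levels of different genes to be compared. There was 1 library, so every value below is a single measurement with no replicate error and no p-value, and no order of levels has been set against biological variation. The sequencing depth is unknown. In whole tissue, fewer cells of a type and less RNA per cell cannot be told apart.

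The library carried markers of secretory epithelium and of the tissue around it. All 5 secretory alveolar markers lay at or above 10 FPKM, from Btn1a1 at 538 to Csn2 at 170861, and all 4 luminal markers lay between 108 and 244. The 6 adipocyte markers summed to 1404 FPKM and the 5 skeletal muscle markers to 125. Endothelial markers summed to 39.9 FPKM over 4 genes, and the 3 measured macrophage markers to 67.0, of which Lyz2 supplied 62.0. Lymphocyte markers summed to 4.90 FPKM over 5 genes. The 4 measured myoepithelial markers summed to 180 FPKM, the 4 of neurons and glia to 14.1, and the erythroid marker Alas2 stood at 1.68.

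Of the 58 carriers, 20 (34.5%) stood at or above 10 FPKM, against 27.9% of all named genes. Another 18 lay between 1 and 10 FPKM and 20 below 1 FPKM, so the set divided almost evenly over the 3 ranges. A level of at least 1 FPKM was reached by 38 (65.5%), against 73.6% of all named genes, and 2 (3.45%) reached 100 FPKM, against 2.96%. The middle range held 31.0% of the carriers, against 44.6% of the 213 other Slc and Slco genes and 45.7% of all named genes. The median was 2.80 FPKM for the carriers (quartiles 0.58 and 17.8), 3.98 for the other Slc and Slco genes (0.77 and 11.0) and 3.90 for all named genes (0.91 and 11.4). None of the 58 was listed at 0, as 599 of the 14847 named genes were, a share at which few of 58 genes would be. These shares are descriptions of 1 library. The genes nearest to the lower threshold were Slc29a4 at 0.99 FPKM below it and Slc5a8 at 1.17 above it, and those nearest to the upper one were Slc2a4 at 7.84 and Slc46a1 at 10.5.

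**Figure D1:**
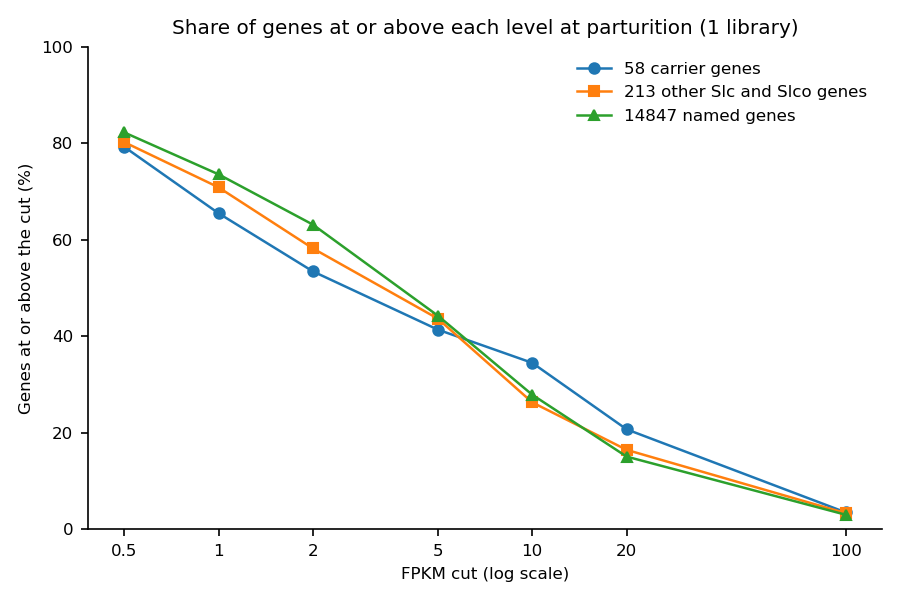
Share of genes, in percent, at or above each FPKM value on a log axis at parturition, for the 58 carrier genes, the 213 other Slc and Slco genes and all 14847 named genes, 1 library. The carrier line lies lowest from 0.5 to 5 FPKM and highest from 10 to 100 FPKM, with small gaps to the next line at 0.5, 5 and 100 FPKM.

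**Figure D2:**
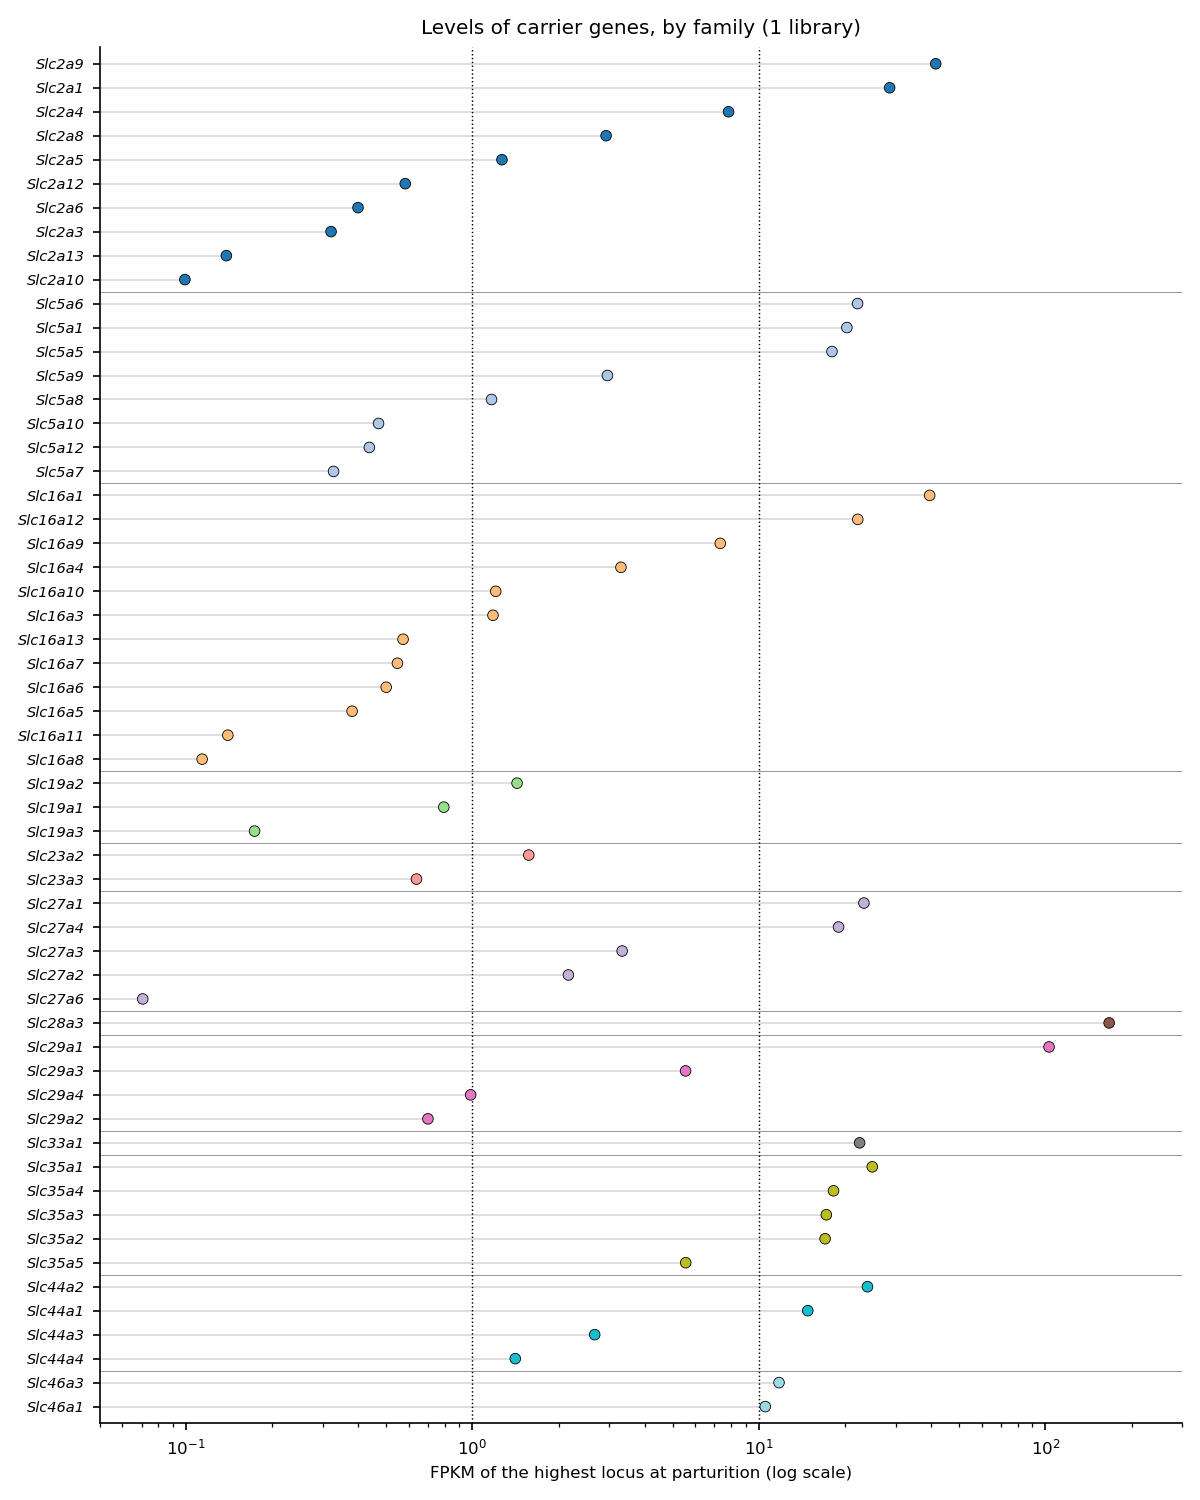
FPKM of the highest locus of 57 of the 58 carrier genes at parturition, on a log axis, grouped by family in the order of the family number and sorted by level within it, with dotted lines at 1 and 10 FPKM, 1 library. Slc28a3 at 167 and Slc29a1 at 103 stand to the right of all others. The points of subfamily Slc35a and of families Slc44 and Slc46 all lie above 1 FPKM.

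Promoter sequence is shown first for 3 of the genes that the levels turn on: the highest carrier, Slc28a3, the highest monocarboxylate carrier, Slc16a1, and Slc2a1, the main glucose carrier. Each is the 250 bases before the gene's start in the RefSeq table for GRCm38.p6, with CG in capitals, since CG-rich promoters are a common feature of widely expressed genes.
Slc28a3, chr13:58610878-58611127, minus strand: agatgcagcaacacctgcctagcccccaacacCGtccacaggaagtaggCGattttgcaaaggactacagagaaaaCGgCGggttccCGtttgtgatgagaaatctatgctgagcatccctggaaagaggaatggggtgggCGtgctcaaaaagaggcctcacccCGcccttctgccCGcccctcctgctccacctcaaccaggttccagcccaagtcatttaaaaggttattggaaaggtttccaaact
Slc16a1, chr3:104638414-104638663, plus strand: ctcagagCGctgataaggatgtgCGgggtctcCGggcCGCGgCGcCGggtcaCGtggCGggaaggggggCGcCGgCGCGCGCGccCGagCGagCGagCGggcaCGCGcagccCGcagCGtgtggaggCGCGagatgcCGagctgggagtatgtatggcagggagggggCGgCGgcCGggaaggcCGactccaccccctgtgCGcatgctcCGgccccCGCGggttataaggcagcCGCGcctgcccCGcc
Slc2a1, chr4:119108495-119108744, plus strand: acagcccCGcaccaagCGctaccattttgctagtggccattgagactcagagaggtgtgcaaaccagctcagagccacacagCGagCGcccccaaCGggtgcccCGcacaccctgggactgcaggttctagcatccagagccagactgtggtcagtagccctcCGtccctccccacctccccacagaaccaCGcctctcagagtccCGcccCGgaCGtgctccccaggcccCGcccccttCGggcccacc

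These windows held 8 CG in Slc28a3, 37 in Slc16a1 and 13 in Slc2a1, so the highest carrier had the fewest of the 3. Such windows were listed for 47 of the 58 carriers, with a median of 14 CG in the richest window of a gene, against 6 over all 27025 genes of the table, many of which have no value here. The median was 13 for the 19 carriers at or above 10 FPKM, 17 for the 15 between 1 and 10 FPKM, and 8 for the 13 below 1 FPKM. The letters TTCNNNGAA, the core of the element that STAT5 binds, which read the same on both strands, were searched in the same windows. They occurred in 1 of the 47 carriers (2.13%), against 8.13% of all genes of the table. The match lay in Slc46a3, starting 238 bases before the gene's start, and is printed with its flanks and the motif in capitals.
Slc46a3, chr5:147895035-147895063, minus strand: tccacggcgcTTCAGCGAAaaccaataat

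Nucleoside carriers held the highest levels of the whole set. Nucleosides are taken up into cells for salvage, either against their gradient with sodium by the concentrative carriers of family Slc28 or down it by the equilibrative carriers of family Slc29. Slc28a3, a concentrative carrier of purine and pyrimidine nucleosides, stood at 167 FPKM and ranked 288 of 14847 named genes. Slc29a1, an equilibrative carrier of the cell surface, stood at 103 FPKM and ranked 429. By the highest locus of each gene, Slc28a3 and Slc29a1 together made up 37.0% of the summed level of the 58. The shares depend on how loci are counted. With loci summed, Slc28a3 held 32.2% in place of 22.9%, and family Slc29 12.8% in place of 15.1%. Slc28a3 was 1.62 times Slc29a1 by the highest locus of each gene, and 2.68 times when loci were summed. FPKM is divided by length at each locus. Where the assembly split a gene into pieces, here and below, a sum over loci can therefore exceed the FPKM of the whole gene.

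The other equilibrative carriers were far lower. Slc29a1 was 18.6 times the level of Slc29a3, the lysosomal form, which stood at 5.55 FPKM. Slc29a4, which also carries monoamines, was at 0.99 FPKM and Slc29a2 at 0.70. Slc28a2, another concentrative carrier, was held in a locus merged with Gm14085 at 0.32 FPKM and is not among the 58.

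Enzymes of nucleoside salvage lay below both leading carriers. Of all named genes, 73.6% reached 1 FPKM and 27.9% reached 10, and these shares apply beside the counts of every partner list below. All but 1 of the 15 salvage genes reached 1 FPKM and 5 reached 10. Those were the adenosine kinase gene Adk at 41.0 FPKM, the uridine-cytidine kinase gene Uck2 at 31.7, the purine salvage genes Hprt at 31.0 and Aprt at 25.8, and the purine nucleoside phosphorylase gene Pnp at 29.5. Slc28a3 was 4.07 times the level of Adk, the highest of them.

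Slc28a3 was spread over more loci than any other carrier. Its 5 loci stood at 167, 36.6, 36.5, 31.7 and 7.04 FPKM, which sum to 279. Slc29a1, by contrast, had loci at 103, 0.69 and 0.15 FPKM, so that nearly all of its level came from 1 of them. In all, 13 of the 58 carriers (22.4%) had several loci in the transcript assembly, against 25.8% of named genes.

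**Figure D3:**
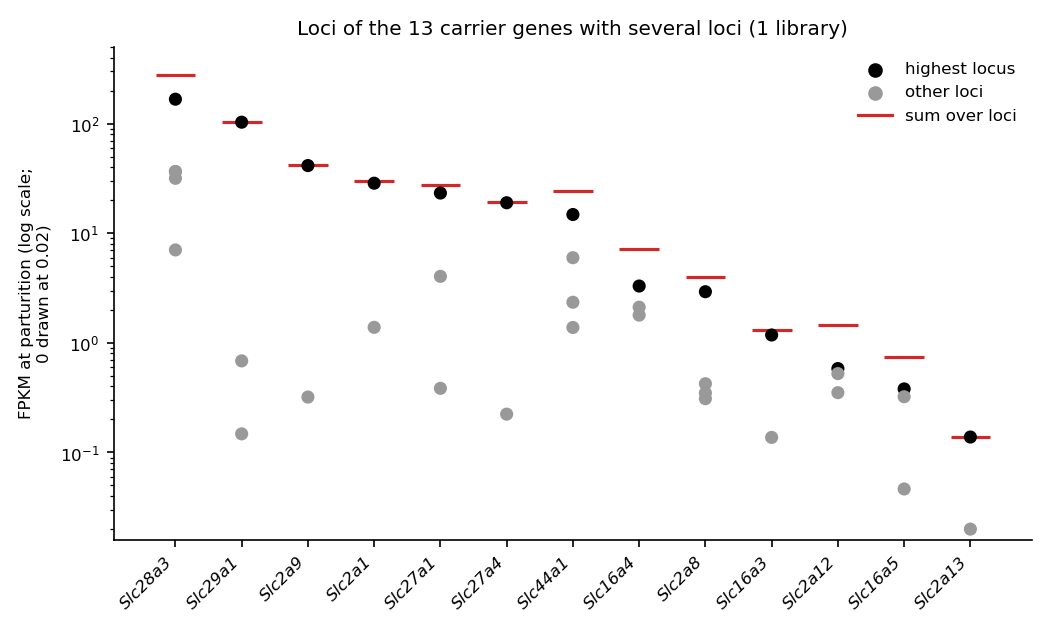
FPKM at parturition, on a log axis, of every locus of the 13 carrier genes with several loci, with the highest locus in black, other loci in grey and the sum over loci as a red line, 1 library; a value of 0 is drawn at 0.02. Slc28a3 and Slc44a1 have a sum well above their highest locus, while in Slc29a1, Slc2a9 and Slc27a4 the highest locus is nearly the whole sum.

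Hexose carriers of family Slc2, which let sugars pass down their gradient, were led by Slc2a9 and Slc2a1. Slc2a9, known chiefly as a urate carrier, stood at 41.4 FPKM, and Slc2a1, the glucose carrier that supplies the lactating gland, at 28.6, a ratio of 1.45. Each drew its level from 1 locus: the loci of Slc2a9 were at 41.4 and 0.32 FPKM and those of Slc2a1 at 28.6 and 1.39. Slc2a1 was 3.65 times the level of Slc2a4, the insulin-responsive glucose carrier of fat and muscle, which stood at 7.84 FPKM. Adipocyte and muscle markers are present in this library, and their part in the Slc2a4 level was not tested.

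The remaining 7 genes of the family were low. Slc2a8, an intracellular hexose carrier, was at 2.93 FPKM and the fructose carrier gene Slc2a5 at 1.27. Below 1 FPKM lay 5 of the 10 members, which were Slc2a12 at 0.58, Slc2a6 at 0.40, the neuronal glucose carrier gene Slc2a3 at 0.32, the myo-inositol carrier gene Slc2a13 at 0.14 and Slc2a10 at 0.10. Slc2a12 had 3 loci of similar level and summed to 1.46 FPKM. The family median was 0.93 FPKM, or 1.36 with loci summed, which crosses 1 FPKM.

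The genes that use the glucose carried by Slc2a1 spanned a wide range. Of 14 genes of lactose synthesis and UDP-sugar supply, 13 reached 1 FPKM and 9 reached 10. Lalba and B4galt1, the subunits of lactose synthase, stood at 8034 and 436 FPKM. Enzymes of hexose phosphate and UDP-sugar supply lay on either side of Slc2a1 at 28.6 FPKM, with Gpi1 at 48.3 FPKM, Pgm2 at 16.04, Pgm1 at 14.6 and the UDP-glucose pyrophosphorylase gene Ugp2 at 13.5. Pgm2 had 3 loci that sum to 30.5 FPKM, just above the 29.99 of Slc2a1 with its loci summed, so the side on which it lies depends on how loci are counted. The hexokinase genes Hk1 and Hk2 were at 12.9 and 12.5 FPKM.

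Of 12 genes of glucose carrier traffic and glucose sensing, all reached 1 FPKM and 8 reached 10. Txnip, which promotes the removal of Slc2a1 protein from the cell surface, stood at 172 FPKM and the kinase gene Akt1 at 169. Lower levels were those of the transcription factor gene Hif1a at 24.2 FPKM, Gipc1, whose product binds the tail of Slc2a1 protein, at 23.6, Tbc1d4 at 15.3, Irs1 at 13.7, Arrdc4 at 13.6 and Akt2 at 10.4. Tbc1d4 had 4 loci, the next one at 14.8 FPKM, and their sum of 38.7 lies above Hif1a and Gipc1. With loci summed, 9 genes of this list reached 10 FPKM.

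Sodium-coupled carriers of family Slc5 showed 3 genes near 20 FPKM and the other 5 below 3. Slc5a6, the multivitamin carrier of biotin and pantothenate, stood at 22.1 FPKM, the sodium-glucose carrier gene Slc5a1 at 20.3 and the iodide carrier gene Slc5a5, which brings iodide into milk, at 18.0. Slc5a6 was 1.09 times Slc5a1, and Slc2a1 was 1.41 times Slc5a1. Slc5a9, a sodium-coupled carrier of mannose and other sugars, was at 2.96 FPKM, and Slc5a8, which takes up lactate and short-chain fatty acids, at 1.17. The others were Slc5a10 at 0.47 FPKM, Slc5a12, which also carries lactate, at 0.44, and Slc5a7, the choline carrier of cholinergic neurons, at 0.33. Each of the 8 genes had a single locus.

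Partner genes of iodide, heme and vitamin use were uneven in level. Of 6 measured iodide and heme partners, 2 reached 10 FPKM, the lactoperoxidase gene Lpo at 58.8 and Abcg2, a carrier that exports riboflavin into milk, at 194. Duox1, which makes hydrogen peroxide in the thyroid, was at 4.35 FPKM, Duox2 at 0.10, and the iodotyrosine deiodinase gene Iyd was listed at 0. Of 15 measured genes of vitamin use, 14 reached 1 FPKM and 7 reached 10. The biotin-dependent carboxylase genes were among the 7, with Acaca at 154 FPKM, Pcx at 72.6, Pcca at 14.6 and Mccc1 at 13.4. Pank3, the pantothenate kinase that begins coenzyme A synthesis, stood at 107 FPKM, whereas Pank4, Pank1 and Pank2 were at 7.49, 3.93 and 3.18. The riboflavin kinase gene Rfk was at 64.3 FPKM and Gsto1, which can reduce oxidised ascorbate, at 43.1.

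Family Slc16 carries lactate, pyruvate and other monocarboxylates with protons. Slc16a1, the broadly expressed lactate carrier, stood at 39.5 FPKM and Slc16a12, a creatine carrier, at 22.1. Slc16a1 was 33.4 times the level of Slc16a3, the lactate carrier typical of glycolytic muscle, which stood at 1.18 FPKM. Slc16a9 was at 7.33 FPKM, Slc16a4 at 3.30 and the aromatic amino acid carrier gene Slc16a10 at 1.21.

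The other 6 of the 13 genes of family Slc16 lay below 1 FPKM. They were Slc16a13 at 0.57, the high-affinity lactate carrier gene Slc16a7 at 0.55, Slc16a6 at 0.50, Slc16a5 at 0.38, Slc16a11 at 0.14 and Slc16a8, the lactate carrier of retinal pigment epithelium, at 0.11. With loci summed, Slc16a4 came to 7.21 FPKM, and Slc16a5 came to 0.75 and passed Slc16a13.

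Lactate and pyruvate handling had 12 measured partner genes, of which all reached 1 FPKM and 9 reached 10. The lactate dehydrogenase gene Ldha stood at 441 FPKM and Ldhb at 39.7. The mitochondrial pyruvate carrier genes Brp44l and Brp44 stood at 376 and 220 FPKM and the pyruvate dehydrogenase gene Pdha1 at 136. Slc16a1 was 0.24 times the level of Bsg, the accessory protein that brings it to the cell surface, which stood at 164 FPKM. Emb, the accessory protein of Slc16a7, was at 2.95 FPKM. Carbonic anhydrase genes Car4 and Car2 were at 63.6 and 54.0 FPKM, and the pyruvate dehydrogenase kinase gene Pdk1 at 15.1.

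Fatty acid carriers of family Slc27, which also activate fatty acids to their coenzyme A esters, were led by Slc27a1 at 23.3 FPKM and Slc27a4 at 18.97. Slc27a1 is best known from fat and muscle. The loci of Slc27a1 stood at 23.3, 4.04 and 0.38 FPKM and those of Slc27a4 at 18.97 and 0.22. Slc27a3 was at 3.33 FPKM, Slc27a2, an activator of very long-chain fatty acids, at 2.16, and Slc27a6 at 0.07, the lowest level among the 58.

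Of 11 measured partner genes of fatty acid uptake, 7 stood above Slc27a1, the highest carrier of the family, and 4 below it. All 11 reached 1 FPKM and 9 reached 10. The binding protein genes Fabp3, Dbi, Fabp4 and Fabp5 were at 2220, 1051, 723 and 203 FPKM, and the lipoprotein lipase gene Lpl at 973. Acyl-CoA synthetase genes stood at 416 FPKM for Acsl1, 81.0 for Acsl4 and 16.3 for Acsl5, and Gpihbp1, which holds the lipase on capillaries, at 18.99. The synthetase gene Acsl3 was at 7.003 FPKM, or 13.2 with its 6 loci summed, and the fatty acid receptor gene Cd36 was the lowest at 1.85. Fabp4 and Lpl are also adipocyte genes, and the part of adipocytes in the Slc27a1 level was not tested.

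Genes of families Slc19 and Slc23, which include vitamin carriers, all lay below 2 FPKM. The thiamine carrier genes Slc19a2 and Slc19a3 stood at 1.43 and 0.17 FPKM, and Slc19a1, the reduced folate carrier, at 0.79. Slc23a2, a sodium-coupled carrier of ascorbate, was at 1.57 FPKM and Slc23a3 at 0.64. Each of these 5 genes had a single locus. Gulo, the enzyme of ascorbate synthesis in mouse liver, was at 0.07 FPKM.

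Folate entry at low pH depends on Slc46a1, the proton-coupled folate carrier. It stood at 10.5 FPKM, 13.3 times the level of Slc19a1, and Slc46a3 of the same family stood at 11.8. Slc46a1 was 0.0094 times the level of Folr1, the folate receptor of epithelia, which stood at 1119 FPKM. Of 13 genes of the folate list, all reached 1 FPKM and 3 reached 10, namely Folr1, the folate enzyme gene Mthfd1 at 13.3 and the thymidylate synthase gene Tyms at 12.9. The folylpolyglutamate synthase gene Fpgs, whose product traps folate in the cell, was at 9.58 FPKM. With loci summed, 5 genes of the list reached 10, since Fpgs came to 11.6 FPKM and the folate receptor gene Folr2, with 10 loci, to 13.8.

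Of the 5 genes of subfamily Slc35a, which carries nucleotide sugars, 4 were closely grouped, whereas the 17 other Slc35 genes, outside the symbol rule, ranged from 0 to 74.4 FPKM. Carriers of nucleotide sugars bring the donors of glycosylation from the cytosol into the Golgi. The CMP-sialic acid carrier gene Slc35a1 stood at 24.9 FPKM, Slc35a4 at 18.2, the UDP-N-acetylglucosamine carrier gene Slc35a3 at 17.2, the UDP-galactose carrier gene Slc35a2 at 17.0 and Slc35a5 at 5.55. Slc35a1 was 1.46 times Slc35a2, so 4 of the 5 genes lay within that ratio. Their median of 17.2 FPKM was the highest of the families, as taken here, with at least 3 members. The 17 other Slc35 genes had a median of 4.39 FPKM, so this rank applies to the subfamily only. Slc35a2, which supplies the galactose donor of lactose, was 0.039 times the level of B4galt1.

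The carriers had a median of 17.2 FPKM and the listed genes of donor synthesis one of 23.4. That list holds the enzymes that make nucleotide sugars and also the sulfate donor genes Papss1 and Papss2. Of its 16 genes, 15 reached 1 FPKM and 11 reached 10. For sialic acid, Nans stood at 82.4 FPKM, Cmas, which makes the donor that Slc35a1 carries, at 32.0 and Gne at 30.4. For fucose and mannose donors, Tsta3 stood at 44.7 FPKM, Gmds at 39.4, Gmppa at 33.6 and Gmppb at 13.2. Uap1, which makes the donor that Slc35a3 carries, was at 16.5 FPKM and Gnpnat1 at 10.9. The sulfate donor gene Papss1 was at 45.9 FPKM. Gfpt1, which begins hexosamine synthesis, was listed at 3228 FPKM at its highest locus and at 22.3 and 0.57 at its other loci, so its level depends on the locus taken.

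Slc33a1, the carrier of acetyl coenzyme A into the endoplasmic reticulum, stood at 22.5 FPKM at a single locus.

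Choline carriers of family Slc44 feed the synthesis of phosphatidylcholine, a component of the milk fat globule membrane. Slc44a2 stood at 23.9 FPKM and Slc44a1 at 14.8. Slc44a1 had further loci at 5.98, 2.35 and 1.38 FPKM. Its sum of 24.5 lies above Slc44a2, so the order of the pair depends on how loci are counted. Such a sum can overstate a gene that the assembly split, and whether it did so here was not tested. Slc44a3 was at 2.67 FPKM and Slc44a4, known as a carrier of thiamine pyrophosphate in human colon, at 1.41.

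Of 8 measured genes of choline use, 6 reached 1 FPKM and 3 reached 10. The choline phosphotransferase gene Chpt1 stood at 91.7 FPKM, the choline kinase gene Chka at 81.5 and Cept1 at 13.4. Pcyt1a, the regulated step of the pathway, was at 8.35 FPKM, and Pemt, which makes phosphatidylcholine without free choline, at 9.52. With loci summed, Chka came to 125 FPKM, above the single locus of Chpt1, and Pemt to 16.2, so that 4 genes reached 10.

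**Figure D4:**
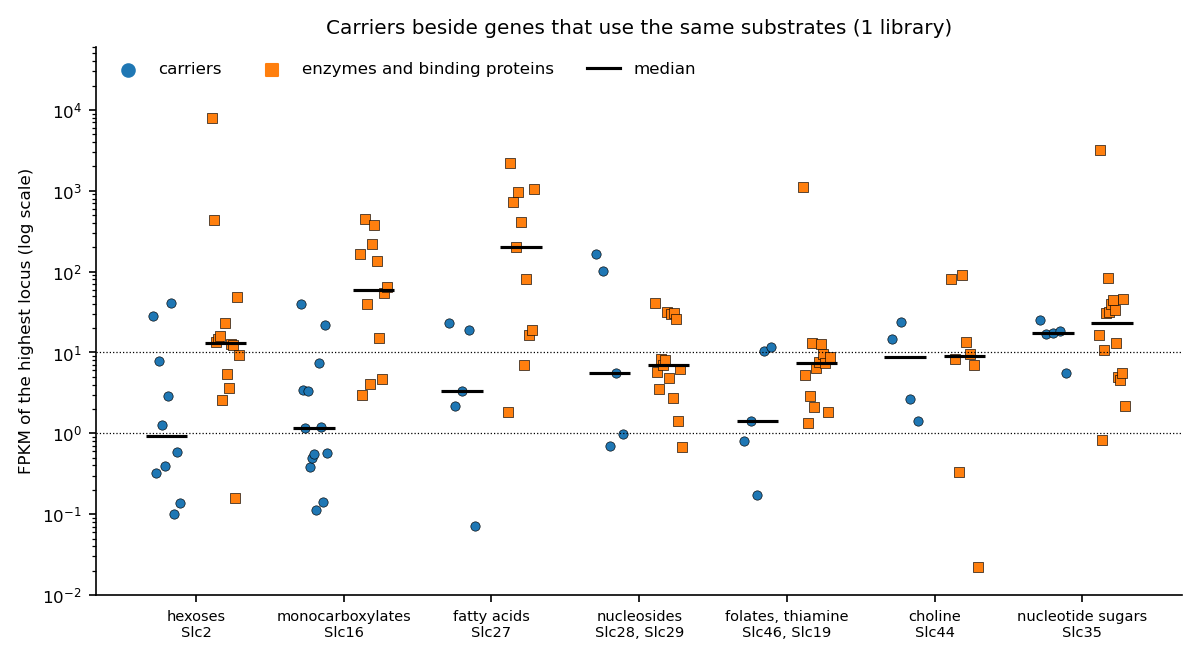
FPKM of the highest locus at parturition, on a log axis, of the carriers of 7 substrate groups (blue circles) beside the enzymes, binding and accessory proteins of the same substrates (orange squares), with the median of each as a black bar and dotted lines at 1 and 10 FPKM, 1 library. Leading nucleoside carriers lie above all salvage genes shown, whereas in the fatty acid group the carriers, at 23.3 FPKM or less, lie below most of their partners.

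Seen by family, the summed level was unevenly spread. By the highest locus, family Slc28, with 1 gene, held 22.9% of the sum over the 58 carriers, Slc29 15.1% and Slc2 11.5%. The 5 Slc35a genes held 11.4% and Slc16 held 11.0%. The 17 other Slc35 genes, led by Slc35b1 at 74.4 FPKM, are outside this sum, so family Slc35 as a whole is not ranked here. Families Slc5, Slc27 and Slc44 held 9.01%, 6.55% and 5.87%, and Slc33 and Slc46 held 3.08% and 3.05%. The vitamin families Slc19 and Slc23 held 0.33% and 0.30%. The 58 carriers together made up 0.067% of the summed level of all named genes, a sum that milk protein genes such as Csn2 dominate.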

How the data were processed

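RNA-seq of 1 library of whole mammary gland at parturition was used. Per the submitters' processing notes, reads were handled with CASAVA and TopHat on mm9, with no version; which program computed FPKM is not given in the sources. The authors' deposited table gives FPKM for 30305 loci of a transcript assembly, 21958 with 1 symbol, 117 with several and 8230 with none. FPKM holds no read counts, so depth and counting error are unknown. The labels do not state strand-specific counting, so reads of overlapping genes cannot be told apart.

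Among loci with 1 symbol, the highest one stood for its gene. No minimum was applied, and genes were described by level, by counts at or above 1, 10 and 100 FPKM, and by medians, with the same over all named genes beside them. The design named no test because a single library allows none. Members and partner lists were chosen with earlier results of these data known. Named by rule are the members and, of each partner list, the genes at or above 10 FPKM and those set beside a carrier; single values of some of these are not reported here. Cell type markers were listed likewise. All 58 symbols matched a RefSeq gene table of GRCm38.p6, which served for names and neighbours, and 47 matched its promoter table. That build differs from mm9, so STAT5A peaks and H3K4me3 regions at day 6 of pregnancy were not set beside genes and were not used here. Alternatives were the sum or median over loci, single-locus genes, other FPKM thresholds, merged loci and a pseudocount of 0.1 in place of 1. A sum over loci is not the FPKM of a gene, since each locus is divided by its own length. Python 3.11.15, pandas 2.3.3 and NumPy 2.4.6 were used, and the collapse of loci was tested on simulated data.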

Additional observations from a re-analysis of the deposited data

How the results depend on the processing

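With FPKM summed over loci, the count of carriers at or above 1 FPKM was 39 in place of 38, that at or above 10 FPKM stayed at 20, and the median of the carriers was 2.82 FPKM in place of 2.80. The same setting moved family medians to 1.36 FPKM for Slc2, 1.21 for Slc16, 279 for Slc28 and 13.3 for Slc44, and left the other 8 as they were. The leading member was the same in 11 of 12 families, the exception being Slc44, and the whole order in 9. Single-locus genes alone, 45 of the 58, gave 13 carriers at or above 10 FPKM and a median of 1.57, since Slc28a3, Slc29a1, Slc2a9, Slc2a1, Slc27a1, Slc27a4 and Slc44a1 have several loci and drop out. A threshold of 20 FPKM in place of 10 left 12 carriers (20.7%, against 15.0% of all named genes). Thresholds of 0.5 and 2 in place of 1 gave 46 (79.3%, against 82.3%) and 31 (53.4%, against 63.2%). Over carriers at or above 1 FPKM the median was 11.1. Counting the merged locus left 38 carriers at or above 1 FPKM, and a pseudocount of 0.1 in place of 1 moved the median log2(FPKM + pseudocount) to 1.53, against 1.93. Summing moved 5 carriers by more than 1.5 times, namely Slc28a3, Slc44a1, Slc16a4, Slc16a5 and Slc2a12. With the median over a gene's loci, Slc28a3 stood at 36.5 FPKM, Slc2a9 at 20.9, Slc2a1 at 15.0, Slc27a4 at 9.60, Slc44a1 at 4.17, Slc27a1 at 4.04, Slc29a1 at 0.69, Slc16a3 at 0.66 and Slc2a8 at 0.39. Counts under that setting, chosen after seeing the data, were 35 carriers at or above 1 FPKM and 16 at or above 10, with a median of 1.84. Summing loci of partner genes, also chosen after seeing the data, moved the count at or above 10 FPKM to 5 from 3 in the folate list, to 4 from 3 for choline, to 10 from 9 for fatty acids and to 9 from 8 for glucose carrier traffic, and left it as it was in the other 6 lists. No paired analysis was possible because the only expression library has no partner, and no replicate could be left out.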

Other observations

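Carriers of the same kinds that the symbol rule leaves out were also present. Through older symbols, Gpr172b and 2310046K01Rik are the riboflavin carrier genes Slc52a2 and Slc52a3 of the RefSeq table for GRCm38.p6, and they stood at 11.3 and 3.01 FPKM. The 5 genes of subfamily Slc35a had a median of 17.2 FPKM, against 4.39 for the 17 other Slc35 genes, of which 7 reached 10 FPKM. Slc35b1 led these at 74.4 FPKM, followed by Slc35c2 at 50.6, Slc35f5 at 22.6 and the GDP-fucose carrier gene Slc35c1 at 17.2. These genes were chosen after their values were seen.

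In the gene order of GRCm38.p6, Slc2a1 at 28.6 FPKM lies between the amino acid oxidase gene Lao1 at 2885 and Zfp691 at 3.82. Next to Slc29a1 at 103 FPKM lies the chaperone gene Hsp90ab1 at 123, and next to Slc2a9 at 41.4 lies Wdr1 at 30.8. The neighbours of Slc28a3 at 167 FPKM are Rmi1 at 7.59 and Ntrk2 at 1.47. Whether reads of a neighbour entered the level of a carrier was not tested.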
